A study of Mus musculus with 6 samples.

Results

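The potassium channel genes of the mouse were examined in cultured cerebellar granule cells (GCs) after knockdown (KD) of YTHDF2, a reader protein that binds mRNA carrying N6-methyladenosine (m6A) and is known for promoting its decay. A gene was included when its identifier in the deposited count table belonged to a protein-coding gene of the GRCm38 annotation whose symbol was Kcn, letters and a final number. This rule found 92 of the 53421 genes in the table, in 20 subfamilies, and used no measured value. The libraries were made from C57BL/6 cerebellar GCs, given in the labels as postnatal day 8, that were dissociated, cultured and infected with lentivirus. The 3 shYthdf2 libraries carried 1 short hairpin RNA against Ythdf2, and the 3 shCtrl libraries carried a control hairpin. Cultures of both groups were selected with puromycin, and the study's methods call the libraries of each group biological replicates. They are numbered 1, 2 and 4 in the library names.

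The labels contradict each other on which libraries are the KD. The library names were followed, and sample titles and genotype entries give the opposite assignment, so that every direction below would be inverted if those were right. In a gene list of the study with columns headed shYthdf2 and shCtrl, the group means matched the library-name assignment within 1% for 896 of 923 genes and matched the exchanged groups for 0 genes.

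Potassium channels let potassium ions leave or enter the cell and so set the resting potential, repolarise action potentials and control how often a neuron fires. A channel is built from pore-forming subunits, which hold the selectivity filter, together with auxiliary subunits that change its gating or transport. GCs are known for a fast transient (A-type) potassium current, for a standing outward current at rest, and for G protein-gated inward rectifiers that are opened by GABA acting on metabotropic receptors.

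The coding sequence of the selectivity filter ties the family together. It was searched in the reading frame of the longest coding sequence of each gene in GENCODE M21, on the coding strand, as 4 successive codons: any codon with T as its middle base, a glycine codon, a tyrosine codon and a glycine codon, or the same with a codon for phenylalanine or for leucine that starts with TT in place of tyrosine. A match was found in 75 of 77 pore-forming or silent subunits (97.4%) and in 0 of 15 auxiliary subunits, against 1153 of 21584 protein-coding genes (5.34%). The pore-forming genes without a match were Kcnk1 and Kcnk7. Below are 48-base windows of 3 pairs of channels whose members were compared after KD, each read 5′ to 3′ from the coding sequence, with the bases of the motif in capitals.
Kcna1: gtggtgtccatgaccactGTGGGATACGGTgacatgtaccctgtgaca
Kcna3: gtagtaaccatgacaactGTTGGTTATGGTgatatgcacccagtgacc
Kcnj3: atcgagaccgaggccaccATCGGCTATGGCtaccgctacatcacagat
Kcnj6: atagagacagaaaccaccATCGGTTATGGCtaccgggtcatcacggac
Kcnk10: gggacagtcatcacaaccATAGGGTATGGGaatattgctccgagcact
Kcnk12: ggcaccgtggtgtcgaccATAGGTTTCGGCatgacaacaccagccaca
The windows are coding. In GRCm38 they lie at chr6:126642210-126642257 on the minus strand in exon 2 of Kcna1 and chr3:107037596-107037643 on the plus strand in exon 1 of Kcna3. Those of the inward rectifiers lie at chr2:55437612-55437659 on the plus strand in exon 2 of Kcnj3 and chr16:94832759-94832806 on the minus strand in exon 3 of Kcnj6. The windows of Kcnk10 and Kcnk12 each cross an exon junction. Within the pairs, 10 of 48 bases differed between Kcnj3 and Kcnj6, 11 between Kcna1 and Kcna3 and 21 between Kcnk10 and Kcnk12. Kcnk10 and Kcnk12 each have a second match, as tandem pore-domain channels carry a pair of pore loops in 1 protein.

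The libraries held 17246821 to 21546595 counts. Replicate 2 stood apart from replicates 1 and 4 in both groups: over the genes tested, the chi-square between replicates 1 and 4 was 3.34 per degree of freedom for shYthdf2 and 4.64 for shCtrl, while replicate 2 differed from the other libraries of its group by 32.9 to 54.8. The tests below took the libraries of a group as independent. Their standard errors and p-values would be too small if replicates 1 and 4 are not. Ythdf2 had 501, 403 and 501 normalized counts in shYthdf2 replicates 1, 2 and 4 and 619, 842 and 629 in shCtrl, so that 67.3% of the shCtrl mean remained. Its groups did not overlap (log2 fold change -0.57, standard error 0.16, adjusted p = 0.125 by the quasi-likelihood test of edgeR, with Benjamini-Hochberg adjustment over all genes tested). A two-sided exact permutation test over libraries gave p = 0.1, the lowest possible with 3 against 3. The 15 granule neuron markers sum to 203244 to 215136 normalized counts in all libraries, with none at 0. Zic1 and Reln are the largest parts of this sum. Of the 15 genes 1 was higher (9.5% of all genes tested) and 3 were lower (10.6%) at an unadjusted p under 0.05, with 0 past an adjusted one in edgeR. The cultures were mixed: 12 oligodendrocyte markers, none at 0, sum to 18371 to 21826 in shYthdf2 and to 6568, 23632 and 6318 in shCtrl replicates 1, 2 and 4. In such bulk samples, fewer cells of a type and less RNA per cell cannot be told apart.

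Levels were compared between genes as normalized counts per kilobase of exon. In shCtrl high levels were those of Kcnd2, the pore subunit of the A-type current, at 1914 ± 233 (SD, n = 3), and Kcnk1, a tandem pore-domain leak channel, at 1637 ± 229. The libraries of these neighbours overlapped. Kcnc1, a fast delayed rectifier of rapidly firing neurons, followed at 1056 ± 56.8, then Kcnk12, a tandem pore-domain channel of the THIK group, at 915 ± 72.2 and Kcnj3, a G protein-gated inward rectifier (GIRK) subunit, at 814 ± 289. The spread of Kcnj3 spanned the level of Kcnk12. Further down, Kcna1, an axonal low-threshold channel, had 565 ± 117, Kcnd3, the partner of Kcnd2 in A-type channels, 441 ± 54.6, and Kcnk2, a mechanically gated leak channel of the TREK group, 433 ± 100. The ranges of these last 3 over the libraries overlapped.

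**Figure D1:**
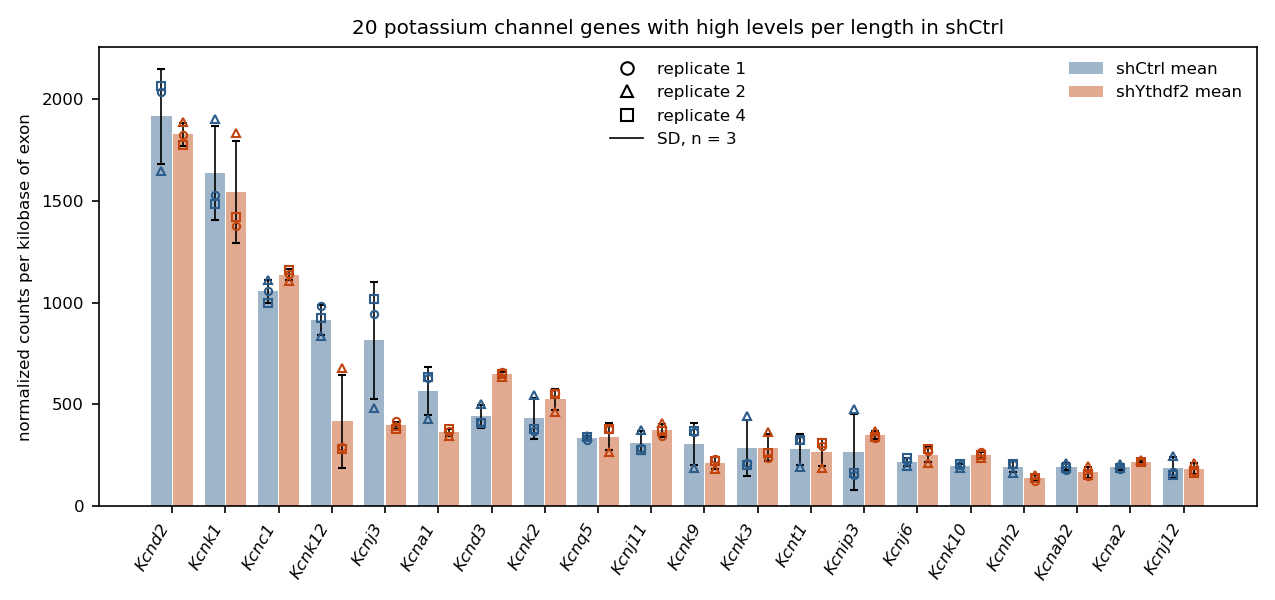
Normalized counts per kilobase of exon (vertical axis) of 20 potassium channel genes with high levels in shCtrl; bars are means, lines are SDs (n = 3), and circles, triangles and squares are replicates 1, 2 and 4. Kcnd2 and Kcnk1 stand highest in both groups, Kcnk12 and Kcnj3 are the tall bars of shCtrl that are shorter in shYthdf2, and Kcnd3 is taller in shYthdf2.

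After KD the order differed among the abundant channels. Summed over the 92 genes, the level was 12305, 13079 and 12450 normalized counts per kilobase in shYthdf2 replicates 1, 2 and 4 and 13161, 13176 and 13159 in shCtrl. The sums were lower in shYthdf2 without overlap, by least in replicate 2. In shYthdf2 Kcnd3 (648 ± 12.6) stood above Kcnk12 (417 ± 226), Kcnj3 (397 ± 19.1) and Kcna1 (364 ± 16.4), all of which were above it in shCtrl. This order is that of the group means: in shCtrl replicate 2, Kcnd3 was already above Kcnj3 and Kcna1, and in shYthdf2 replicate 2 it was below Kcnk12. Voltage-gated pore subunits made up 48.2 ± 1.62% of the summed level in shCtrl and 52.2 ± 2.55% in shYthdf2, tandem pore-domain channels 28.9 ± 2.18% and 25.9 ± 2.68%, and inward rectifiers 13.5 ± 1.31% and 11.7 ± 0.28%. These shares were not tested.

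Of the 92 genes, 66 passed the filter on low counts and were tested among 17214 genes. In edgeR, 0 of the 66 passed an adjusted p of 0.05, beside 104 of all genes tested (0.604%, with 0.244% higher and 0.36% lower). DESeq2 called 13 of the 66, 6 higher and 7 lower (7.67% of all genes tested), and limma-voom called 0 (0.139%). At an unadjusted p under 0.05 both tools had 26 of the 66, beside 19.8% of all genes in DESeq2 and 20.5% in limma-voom. An unadjusted p under 0.05 in edgeR was reached by 24 of the 66 (36.4%), against 20.1% of all genes tested: 13 were higher in shYthdf2 (9.5% of all genes) and 11 lower (10.6%). All 13 genes called by DESeq2 were among these 24. The groups were free of overlap for 24 of the 66 (36.4%), against 26% of all genes tested, with shYthdf2 above for 14 (12.6%) and below for 10 (13.4%). Of the members, 3 passed the filter through the libraries of 1 group, Kcna7 and Kcnj2 through shCtrl and Kcnq1 through shYthdf2, and had to differ. Among the 56 genes with at least 10 counts in every library, 20 had an unadjusted p under 0.05 in a fit restricted to such genes (35.7%, beside 21.3% of the genes in that fit).

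The differences went both ways and were wide rather than shifted. The median log2 fold change of the 66 genes was 0.04, beside 0.01 for all genes tested, and the median of the absolute log2 fold change was 0.43, beside 0.25. Of the members, 35 had positive and 31 negative values, from -1.52 for Kcna7 to 1.75 for Kcnq1. By role, an unadjusted p under 0.05 was reached by 14 of 28 voltage-gated pore subunits (7 higher, 7 lower), 3 of 6 calcium- or sodium-gated channels, 3 of 9 inward rectifiers, 2 of 10 tandem pore-domain channels, 1 of 4 silent subunits and 1 of 9 auxiliary subunits. Without the 3 genes that had to differ, 21 of 63 reached it, with 12 of 26 voltage-gated pore subunits (6 higher, 6 lower) and 2 of 8 inward rectifiers, and the values ran from -1.33 to 1.36. Whether the shares differ between roles was not tested.

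**Figure D2:**
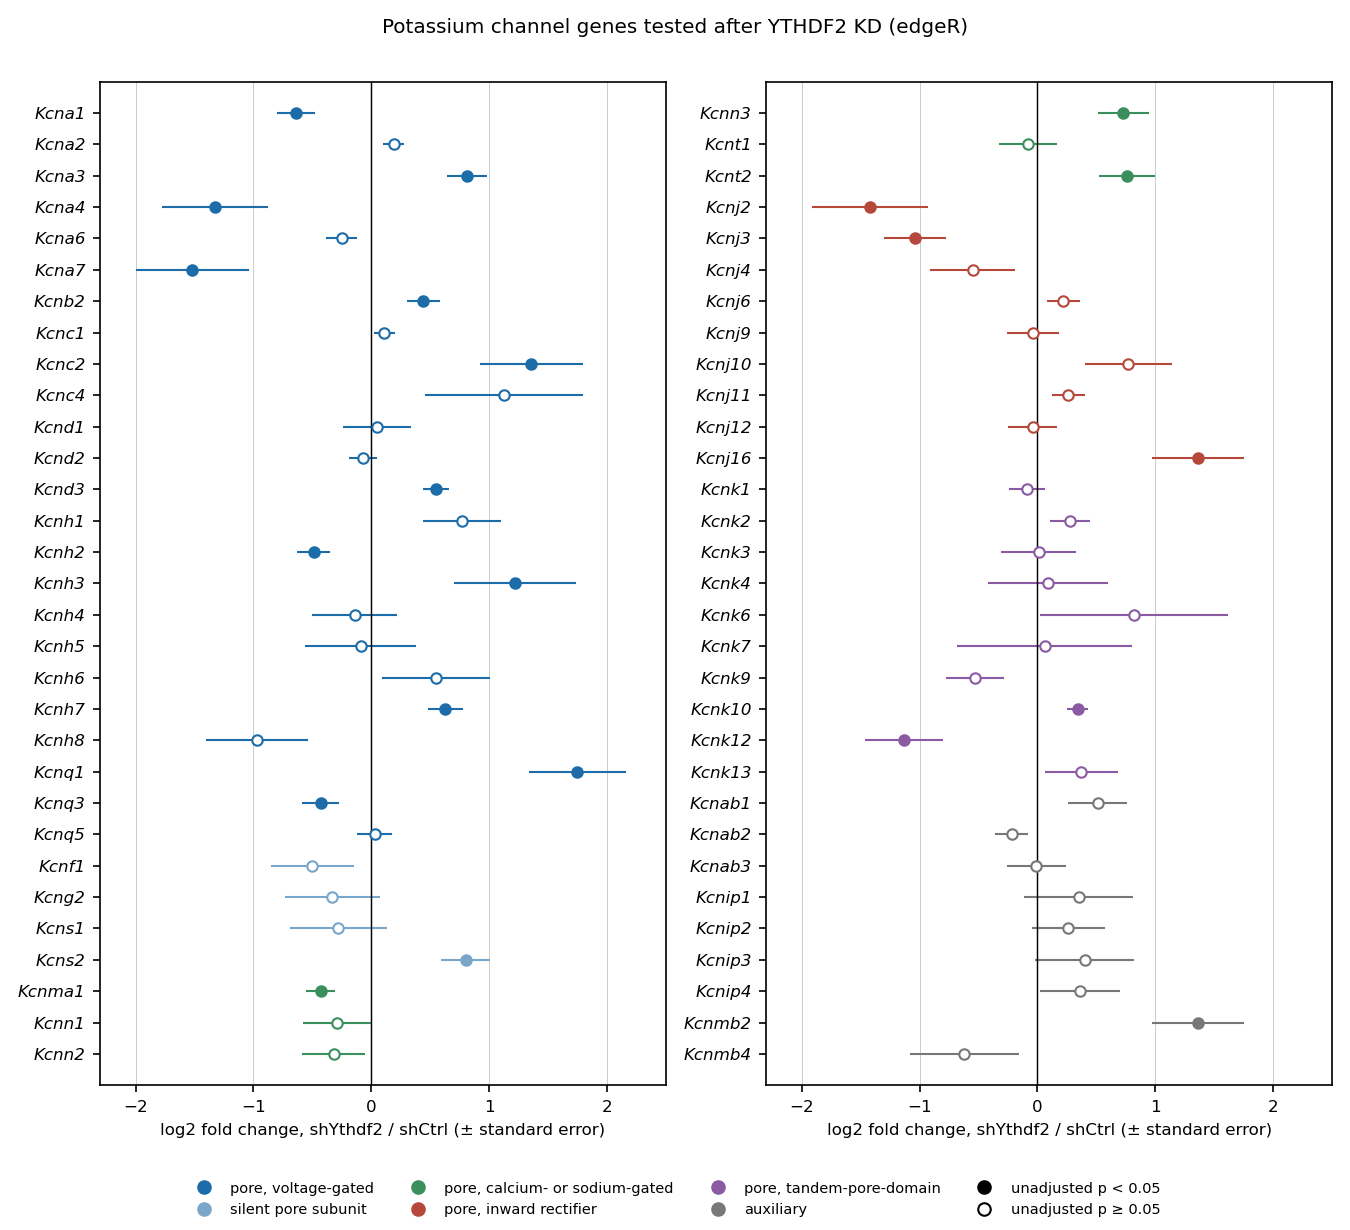
Log2 fold change of shYthdf2 over shCtrl (horizontal axis, ± standard error from edgeR, 3 libraries a group) for 62 of the 66 potassium channel genes tested, grouped and coloured by role; filled points have an unadjusted p under 0.05. Filled points lie on both sides of 0 among the voltage-gated channels, with 7 above 0 and 5 below, and none of the 66 passed the adjusted threshold.

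Kcnb2, a delayed rectifier, had 1453, 1053 and 1234 normalized counts in shYthdf2 and 851, 934 and 969 in shCtrl. Its shYthdf2 libraries all lay above those of shCtrl, the nearest being replicate 2 (log2 fold change 0.44, standard error 0.14, unadjusted p = 0.0136, adjusted p = 0.144). Kcns2, a silent subunit that forms channels only together with other subunits, had 453, 497 and 500 normalized counts in shYthdf2 and 229, 374 and 227 in shCtrl (log2 fold change 0.80, standard error 0.21, unadjusted p = 0.00621, adjusted p = 0.109). Its shCtrl replicate 2 lay between the other shCtrl libraries and shYthdf2.

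In the Kv1 group, low-threshold channels of axons and terminals, Kcna1 was lower and Kcna3 higher. Kcna1, the gene mutated in an inherited episodic ataxia, had 1761, 1652 and 1805 normalized counts in shYthdf2 and 3022, 2057 and 3028 in shCtrl. All shCtrl libraries were above those of shYthdf2, and replicate 2 was the nearest (log2 fold change -0.64, standard error 0.16, unadjusted p = 0.00454, adjusted p = 0.0989). Kcna3 had 215, 279 and 220 in shYthdf2 and 139, 137 and 132 in shCtrl. Here the shCtrl libraries were tightly grouped and shYthdf2 replicate 2 was the highest (log2 fold change 0.81, standard error 0.17, unadjusted p = 0.0017, adjusted p = 0.0715). Kcna2, which joins Kcna1 in axonal channels, had 2573, 2689 and 2565 in shYthdf2 and 2185, 2475 and 2223 in shCtrl, without overlap but with an unadjusted p = 0.0804 and a log2 fold change of 0.19. The Kcna1 to Kcna2 ratio per length was 1.71, 1.53 and 1.75 in shYthdf2 and 3.45, 2.07 and 3.39 in shCtrl. Kcna4, which inactivates fast, had 24.1, 54.3 and 23.4 normalized counts in shYthdf2 and 103, 47.5 and 107 in shCtrl. Its groups overlapped, because shCtrl replicate 2 was below shYthdf2 replicate 2 (log2 fold change -1.33, standard error 0.45, unadjusted p = 0.0204). Kcna7 was rare, with 5.23, 6.79 and 2.12 against 17.8, 12.6 and 11 normalized counts (log2 fold change -1.52, standard error 0.48). It passed the filter only through shCtrl, where it was high.

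Of the A-type pore subunits, Kcnd3 had more counts in shYthdf2, and Kcnd2, the larger part by level, had a log2 fold change near 0. The 2 genes were not tested against each other, and neither passed the adjusted threshold. Kcnd3 (ENSMUSG00000040896) had 6322, 6083 and 6234 normalized counts in shYthdf2 and 3946, 4834 and 3911 in shCtrl, a mean of 147% of shCtrl. All shYthdf2 libraries lay above shCtrl, whose replicate 2 was the nearest (log2 fold change 0.55, standard error 0.11, unadjusted p = 0.00137, adjusted p = 0.0663). Kcnd2 had 9381, 9712 and 9131 in shYthdf2 and 10472, 8476 and 10635 in shCtrl. Its groups overlapped and shCtrl replicate 2 was the lowest library (log2 fold change -0.07, standard error 0.12, unadjusted p = 0.577). Without replicate 2 of both groups the log2 fold change of Kcnd2 was -0.19 (adjusted p = 0.000136 in edgeR, the lowest of the alternatives, which ran up to 1). That fit rests on replicates 1 and 4 alone, which were close to each other in each group. The Kcnd3 to Kcnd2 ratio per length was 0.362, 0.337 and 0.367 in shYthdf2 and 0.203, 0.307 and 0.198 in shCtrl. The ratios given here were chosen after the values of these genes were seen and were not tested. Of the Kcnip genes, calcium-binding subunits of A-type channels, all 4 had positive log2 fold changes, from 0.26 to 0.40, and none had an unadjusted p under 0.05, and Kcnip1 was at -0.06 without shYthdf2 replicate 2. Kcnip3, the most abundant, had 1192, 1315 and 1206 normalized counts in shYthdf2 and 546, 1700 and 576 in shCtrl, where replicate 2 was the highest library of all.

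**Figure D3:**
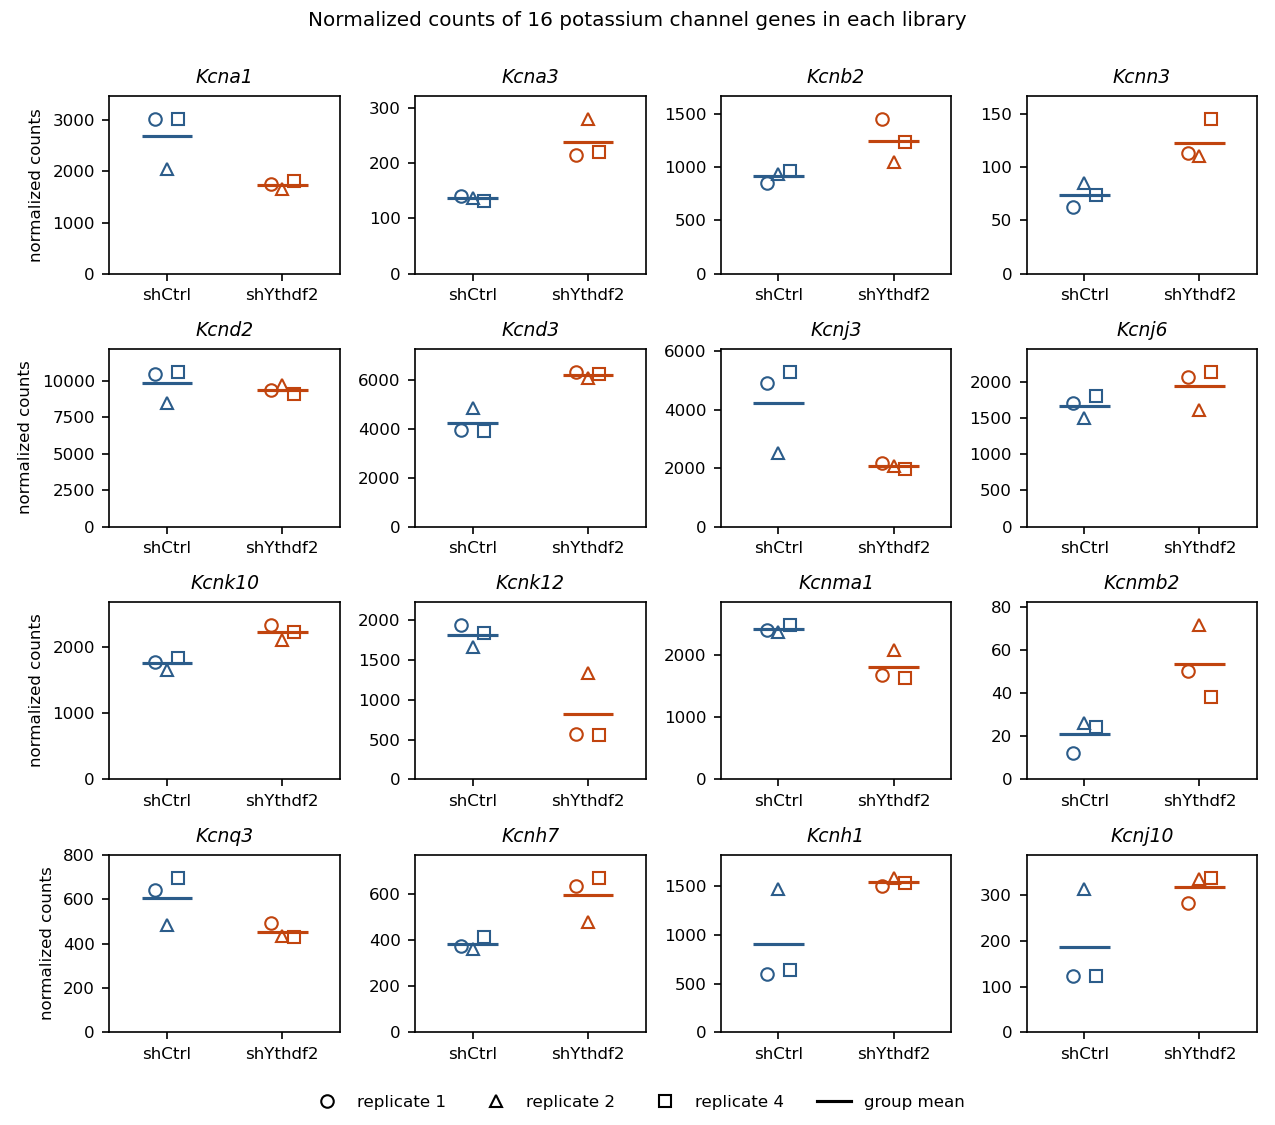
Normalized counts (vertical axes, from 0) of 16 potassium channel genes in each library; blue points are shCtrl, orange points shYthdf2, circles, triangles and squares are replicates 1, 2 and 4, and lines are group means. The groups of Kcnd3 are apart in all 3 replicates (6083 to 6322 against 3911 to 4834), whereas for Kcnj3, Kcnh1 and Kcnj10 the shCtrl triangle lies near the shYthdf2 points.

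Among the fast delayed rectifiers, the abundant Kcnc1 had 10787, 10483 and 10985 normalized counts in shYthdf2 and 9993, 10517 and 9442 in shCtrl, which overlapped (log2 fold change 0.11, unadjusted p = 0.286). The rare Kcnc2, a channel of fast-spiking interneurons, had 29.3, 33 and 24.4 against 12.4, 4.85 and 16.5 normalized counts, without overlap (log2 fold change 1.36, standard error 0.44, unadjusted p = 0.0161). The 10 markers of GABAergic interneurons, none at 0, sum to 18036 to 20838 in shYthdf2 and 12024 to 16350 in shCtrl, without overlap. At an unadjusted p under 0.05, 4 were higher (9.5% of all genes tested) and 1 lower (10.6%). Of the higher ones, Tfap2b passed the adjusted threshold (log2 fold change 0.83, standard error 0.12, adjusted p = 0.0496 in edgeR). The part of these markers in the Kcnc2 difference was not tested. Kcnc4 was the most variable of the group, at 223, 621 and 267 against 98.5, 347 and 60.5 (log2 fold change 1.13, standard error 0.67, unadjusted p = 0.131). Its differences had 1 sign in all replicate numbers (1.17, 0.84 and 2.12 on the log2 scale), and with the replicate number as a block the log2 fold change was 1.34 (unadjusted p = 0.00347, adjusted p = 0.0617). Among all alternatives its adjusted p in edgeR ran from 3.45e-06 without replicate 2 of both groups to 0.999 with replicates 1 and 4 summed. Its log2 fold change was 2.21 without shCtrl replicate 2 and 0.53 without shYthdf2 replicate 2.

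Among the Kcnq genes, Kcnq3, a subunit of the M-current that damps repetitive firing, had 492, 434 and 429 normalized counts in shYthdf2 and 644, 485 and 698 in shCtrl. The groups overlapped, as shCtrl replicate 2 lay below shYthdf2 replicate 1 (log2 fold change -0.43, standard error 0.16, unadjusted p = 0.029). Kcnq5 was near 0, with a log2 fold change of 0.03 and from -0.06 to 0.18 with 1 library left out. Kcnq1, known from heart and epithelia, had the highest value of the 66. Its normalized counts were 23, 15.5 and 22.3 in shYthdf2 and 3.55, 7.76 and 6.6 in shCtrl (log2 fold change 1.75, standard error 0.41, unadjusted p = 0.00329, adjusted p = 0.0891 in edgeR). Kcnq1 passed the filter only through shYthdf2, where it was high, so the filter in part fixed its difference and p-values. It shares 121 exonic bases with the antisense transcript Kcnq1ot1, which had up to 1076 counts, and whether the counting used strand is not given in the sources used here, so the source of these few reads cannot be told apart.

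Of the ether-a-go-go channels, Kcnh7 was higher and Kcnh2 lower, both of them erg-type subunits that slow firing. Kcnh7 had 633, 480 and 670 normalized counts in shYthdf2 and 376, 362 and 412 in shCtrl, without overlap (log2 fold change 0.63, standard error 0.15, unadjusted p = 0.00399, adjusted p = 0.0959). It shares exonic bases with Gca on the opposite strand, which had at most 53 counts. Kcnh2, which repolarises the heart as well, had 603, 736 and 676 in shYthdf2 and 1010, 799 and 1018 in shCtrl, without overlap (log2 fold change -0.49, standard error 0.14, unadjusted p = 0.00854). Kcnh1, the founding mammalian member, had 1499, 1582 and 1527 against 600, 1470 and 640. All shYthdf2 libraries were above shCtrl, but shCtrl replicate 2 nearly met them (log2 fold change 0.77, standard error 0.33, unadjusted p = 0.0502). Without shCtrl replicate 2 its log2 fold change was 1.31 and its adjusted p = 0.000981. Among all alternatives its adjusted p in edgeR ran from 7.13e-11 without replicate 2 of both groups to 0.999 with replicates 1 and 4 summed. Kcnh3, of the ELK group, had 151, 99 and 145 against 37.3, 107 and 24.2, and overlapped for the same reason (log2 fold change 1.22, standard error 0.52, unadjusted p = 0.0473). Without shCtrl replicate 2 it was 2.08.

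Of the GIRK subunits tested, Kcnj3 had groups without overlap, and Kcnj6 and Kcnj9 had groups that overlapped. Kcnj3 had 2173, 2065 and 1975 normalized counts in shYthdf2 and 4919, 2522 and 5297 in shCtrl, and 48.8% of the shCtrl mean remained. The shYthdf2 libraries were close to each other, all shCtrl libraries were above them, and shCtrl replicate 2 was the nearest (log2 fold change -1.04, standard error 0.26, unadjusted p = 0.0044, adjusted p = 0.0976). The difference was -1.18 and -1.42 on the log2 scale in replicates 1 and 4 and -0.29 in replicate 2. Kcnj6, its usual partner in neurons, had 2069, 1612 and 2144 against 1709, 1503 and 1806, which overlapped (log2 fold change 0.22, standard error 0.14, unadjusted p = 0.156). Kcnj9, another partner, was near 0 (log2 fold change -0.04, standard error 0.22), and its sign turned in 4 of the 16 alternatives. The Kcnj3 to Kcnj6 ratio per length was 1.54, 1.88 and 1.35 in shYthdf2 and 4.21, 2.46 and 4.29 in shCtrl.

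The inward rectifiers known from glia, Kcnj10 and Kcnj16, had positive log2 fold changes. Kcnj10, which clears potassium around neurons, had 284, 335 and 338 normalized counts in shYthdf2 and 123, 313 and 123 in shCtrl, where replicate 2 fell among the shYthdf2 libraries (log2 fold change 0.77, standard error 0.37, unadjusted p = 0.0713). Without that library its log2 fold change was 1.37. Kcnj16, which pairs with it, did not follow these libraries, with 35.6, 17.5 and 28.7 against 7.99, 12.6 and 11, without overlap (log2 fold change 1.36, standard error 0.39, unadjusted p = 0.00904). The sums of 12 astrocyte and Bergmann glia markers, none at 0, were 14994, 14014 and 14864 in shYthdf2 and 9611, 16517 and 9763 in shCtrl, with the same low pair of shCtrl libraries as Kcnj10 and the oligodendrocyte markers. Of the astrocyte markers 1 was higher and 1 lower at an unadjusted p under 0.05, and of the oligodendrocyte markers 1 was higher, each share under that of all genes tested, with 0 past an adjusted p of 0.05 in edgeR. The part of glia in these results was not tested. Kcnj2, a strong inward rectifier, was near the filter at 5.23, 2.91 and 8.5 against 13.3, 20.4 and 11 (log2 fold change -1.42, standard error 0.49). It passed the filter only through shCtrl, where it was high. Kcnj11, the pore of ATP-sensitive channels, had a log2 fold change of 0.26, and Abcc8, which regulates that pore, likewise 0.26, neither with an unadjusted p under 0.05. Kcnj12 was likewise near 0 (log2 fold change -0.04, standard error 0.21), and its sign turned in 3 of the 16 alternatives.

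Of the tandem pore-domain channels, which carry leak current, Kcnk12 was lower and Kcnk10 higher. Kcnk12 had 571, 1337 and 558 normalized counts in shYthdf2 and 1935, 1653 and 1827 in shCtrl, and 45.5% of the shCtrl mean remained. Here the shYthdf2 replicate 2 was the library that stood apart, and the groups still did not overlap (log2 fold change -1.13, standard error 0.33, unadjusted p = 0.0102, adjusted p = 0.129). Without shYthdf2 replicate 2 the log2 fold change was -1.68. Kcnk10, of the TREK group, had 2328, 2095 and 2221 against 1771, 1642 and 1829, a difference of like size in each replicate number (log2 fold change 0.34, standard error 0.09, unadjusted p = 0.00718, adjusted p = 0.115). Kcnk1 was near 0 (log2 fold change -0.09, standard error 0.15), with a positive sign without shCtrl replicate 2. The TASK channels Kcnk3 and Kcnk9, known for the standing outward current of GCs, had log2 fold changes of 0.01 (standard error 0.32) and -0.53 (standard error 0.25, unadjusted p = 0.07), and the sign of Kcnk3 turned in 5 of the 16 alternatives. Kcnk9 had 2877, 2240 and 2738 normalized counts in shYthdf2 and 4460, 2330 and 4576 in shCtrl. Its replicate 2 libraries were alike in the 2 groups. A noncoding neighbour on the opposite strand of Kcnk3, Gm9899, had up to 1113 counts and shares 229 exonic bases with it, so that its value is uncertain.

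The calcium- and sodium-activated channels also held members of both directions. Kcnma1, the pore of the large-conductance BK channel, had 1676, 2081 and 1633 normalized counts in shYthdf2 and 2398, 2364 and 2478 in shCtrl, without overlap (log2 fold change -0.43, standard error 0.12, unadjusted p = 0.00726, adjusted p = 0.116). Its auxiliary subunit Kcnmb2, which makes BK currents inactivate, had 50.2, 71.8 and 38.2 against 12.4, 26.2 and 24.2, also without overlap (log2 fold change 1.36, standard error 0.39, unadjusted p = 0.00883). Kcnmb4, a BK subunit of neurons, had 266, 128 and 240 against 424, 133 and 413, where the replicate 2 libraries were alike (log2 fold change -0.62, unadjusted p = 0.218). The antisense transcript Kcnmb4os2 shares 693 exonic bases with it and had up to 490 counts. Kcnn3, a small-conductance channel, had 113, 111 and 146 against 63, 85.3 and 73.7 (log2 fold change 0.73, standard error 0.22, unadjusted p = 0.0112), while for Kcnn2 the log2 fold change was -0.32 (standard error 0.27). Of the sodium-activated channels, Kcnt2 had 129, 129 and 154 against 85.2, 59.1 and 99 (log2 fold change 0.76, standard error 0.24, unadjusted p = 0.0142). The more abundant Kcnt1 was near 0 (log2 fold change -0.08, standard error 0.25), with replicate 2 the lowest library in both groups, and its sign turned in 3 of the 16 alternatives.

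Of the Kcnab genes, cytoplasmic subunits of Kv1 channels, none had an unadjusted p under 0.05 in the main model, with group as the only term. With the replicate block the unadjusted p was 0.0155 for Kcnab1 and 0.0305 for Kcnab2 (adjusted p = 0.0942 and 0.123 in edgeR). Without shCtrl replicate 2 the adjusted p in edgeR was 0.00641 for Kcnab1 and 0.527 for Kcnab2. Kcnab1 had 676, 799 and 678 normalized counts in shYthdf2 and 393, 733 and 389 in shCtrl, which overlapped through replicate 2 (log2 fold change 0.51), and Kcnab2 had a log2 fold change of -0.22. The other silent subunits tested, Kcnf1, Kcng2 and Kcns1, had log2 fold changes from -0.50 to -0.28, with no unadjusted p under 0.05. No gene of the Kcne, Kcnu or Kcnv subfamilies was tested.

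The 26 genes that were not tested had at most 16 counts in any library, and 20 of them had fewer than 10 in every library. Kcne3 and Kcnk16 had 0 counts in all 6 libraries, which allows up to 3 expected counts over the 6 libraries together by counting error alone. Kcnv1, a silent subunit, had 2.09, 0 and 1.06 normalized counts in shYthdf2 and 10.7, 9.69 and 3.3 in shCtrl, and Kcnu1, the sperm-specific relative of Kcnma1, had 9.42, 15.5 and 11.7 against 6.21, 3.88 and 3.3. The groups did not overlap for either, at counts too low for the test.

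The number of channel genes past a threshold depended on replicate 2. The difference between groups was smaller in replicate 2 than in replicates 1 and 4 for 48 of the 66 genes, and the median absolute difference was 0.63, 0.28 and 0.70 on the log2 scale in replicates 1, 2 and 4, beside 0.34, 0.21 and 0.32 for all genes tested. The shCtrl replicate 2 library lay nearer to the shYthdf2 mean than to the mean of shCtrl replicates 1 and 4 for 41 of 66 genes (62.1%), beside 58.1% of all genes. Without this library 24 of 67 genes passed an adjusted p of 0.05 (35.8%, beside 18.3% of all genes tested). Without shYthdf2 replicate 2, 4 of 65 passed it (6.15%, beside 4.7%), and without replicate 2 of both groups 52 of 64 (81.2%, beside 52.7%). The last fit rests on replicates 1 and 4 alone, which were close to each other in each group. With replicates 1 and 4 summed, 0 of 71 passed it. With a separate term for replicate 2 in the model 25 of 66 passed it (37.9%, beside 22.1%), 16 higher and 9 lower, and 19 of these were among the 24 with an unadjusted p under 0.05 in the model without that term. With the replicate number as a block 0 passed it (1.35% of all genes), and 35 had an unadjusted p under 0.05 (31.6% of all genes). The block added 12 genes to the 24, among them Kcna2, Kcnab1, Kcnab2, Kcnc4, Kcnh1, Kcnj6, Kcnj10, Kcnj11, Kcnk9 and Kcnmb4, and took away 1, Kcna4. At that unadjusted threshold there were 37 genes with the term for replicate 2 (39.5% of all genes), 53 without replicate 2 of both groups (57.6%), 41 without shCtrl replicate 2 (34%) and 29 without shYthdf2 replicate 2 (26%). The groups were free of overlap for 50 of 67 genes without shCtrl replicate 2 (53.9% of all genes) and for 39 of 65 without shYthdf2 replicate 2 (49.1%), and for 57 of 64 without replicate 2 of both groups (76%), beside 24 with all libraries. Fewer libraries overlap less often in any gene. Leaving out shCtrl replicate 2 also moved the log2 fold change to 1.14 for Kcnip3, 0.88 for Kcnab1, 0.41 for Kcnj11, -0.54 for Kcnn2 and -0.99 for Kcnmb4. Of the 24, 22 had the same sign in all 3 replicate numbers. The exceptions were Kcna4 and Kcnh3.

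**Figure D4:**
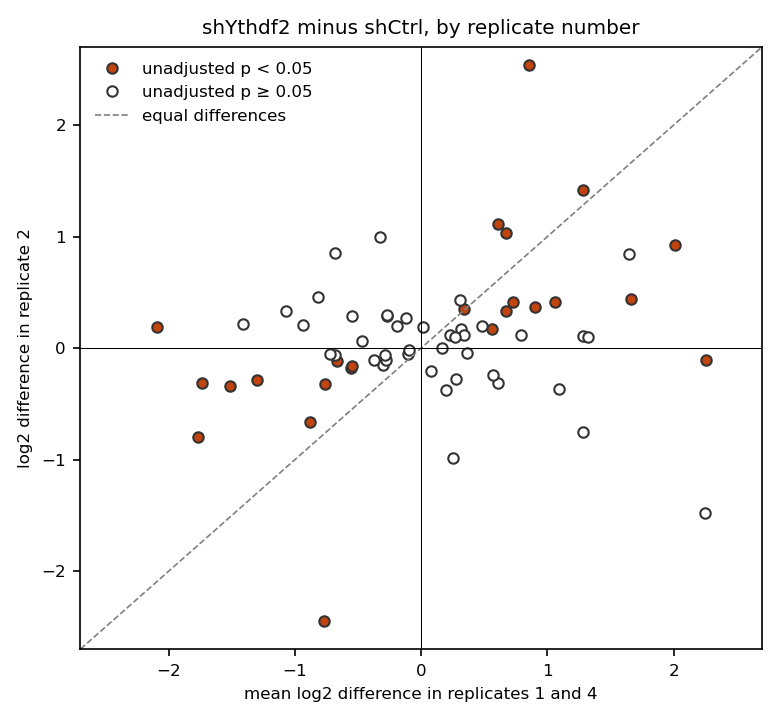
Log2 difference between shYthdf2 and shCtrl in replicate 2 (vertical axis) against the mean of the differences in replicates 1 and 4 (horizontal axis), with 1 point for each of the 66 potassium channel genes tested; filled points have an unadjusted p under 0.05 and the dashed line marks equal differences. For 48 of the 66 genes the difference in replicate 2 was smaller in size than in replicates 1 and 4, so most points lie closer to the horizontal zero line than to the dashed line or past it.

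Other measures moved with the same libraries. Of 17 immediate-early genes, which are switched on by neuronal activity and calcium entry, 16 were tested. Of these, 14 were lower at an unadjusted p under 0.05 (10.6% of all genes tested) and 4 at an adjusted one (0.36%) in edgeR. Their sums were 10685, 7311 and 10863 normalized counts in shYthdf2 and 70729, 20668 and 69005 in shCtrl, with none at 0. The sum of shCtrl replicate 2 lay nearer to shYthdf2 than those of the other shCtrl libraries. The part of these genes in the channel results was not tested.

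Genes that work with potassium channels were taken from 3 lists. Of 35 such genes, 30 were tested and 0 passed an adjusted p of 0.05 in edgeR, while 11 had an unadjusted p under 0.05 (20.1% of all genes) and DESeq2 called 3 (7.67%). Without shCtrl replicate 2 edgeR called 11 (18.3% of all genes), and without shYthdf2 replicate 2 it called 4 (4.7%). All 4 HCN genes, relatives of potassium channels that carry the hyperpolarization-activated cation current, were lower at an unadjusted p under 0.05, with log2 fold changes from -0.61 for Hcn3 to -0.46 for Hcn4. Hcn2 had 914, 1207 and 938 normalized counts in shYthdf2 and 1544, 1544 and 1402 in shCtrl (log2 fold change -0.55, standard error 0.13, unadjusted p = 0.00351, adjusted p = 0.091), without overlap. Of the 14 channel partners tested, 3 were higher and 2 lower at an unadjusted p under 0.05. Cntnap2, which holds Kv1 channels beside the node of Ranvier, had 1156, 1134 and 1125 against 407, 854 and 371 (log2 fold change 1.07, standard error 0.30, adjusted p = 0.124), while Cntn2, which works with it, had 19467, 13518 and 19740 against 25120, 23589 and 24654 (log2 fold change -0.48, standard error 0.16, adjusted p = 0.158). Both were without overlap, in opposite directions. Dpp6, a membrane partner of Kcnd2 and Kcnd3, had a log2 fold change of 0.32 (unadjusted p = 0.033). Of 12 pumps and cotransporters tested, 1 was higher and 1 lower. The lower was Atp1b1, a subunit of the sodium-potassium pump, with 1887, 3331 and 1932 normalized counts in shYthdf2 and 5115, 4175 and 5332 in shCtrl (log2 fold change -1.03, standard error 0.23, adjusted p = 0.0824).

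As YTHDF2 binds m6A, which is placed in a sequence context that often reads GGACT, the letters GGACT were counted on the sense strand of the longest protein-coding transcript of each gene. The median was 0.951 per kilobase for the 66 potassium channel genes tested and 1.05 for all 13686 protein-coding genes tested. It was 0.67 for the 13 genes that were higher at an unadjusted p under 0.05 and 0.992 for the 11 that were lower, with ranges of 0 to 1.71 and 0.192 to 4.06 that overlap. A match of these letters does not show that a site is methylated, and methylation was not analysed here.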

How the data were processed

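The authors deposited a table of read counts per gene, whole numbers without normalization, in which the 6 libraries are columns. By the study's methods, the filtered reads were aligned to GRCm38 by HISAT and TopHat2, and HTSeq gave the counts, whereas the submitters' processing notes name mm9 and Bowtie 0.12.2. The labels and the methods also name different library kits. The library totals of 17246821 to 21546595 counts limit the precision of genes with few counts, and SDs cover counting error as well as differences between libraries.

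Identifiers were matched to GENCODE M21 (52489 of 53421, including all 92 members). Counts were tested in R 4.3.3 with edgeR 4.0.16 (filterByExpr with minimum count 10 and minimum total 15, TMM, quasi-likelihood test, group as the only term), with Benjamini-Hochberg adjustment over all 17214 genes tested. The scripts were tested on simulated data. Normalized counts are TMM-normalized counts at the mean library size. Differences by replicate number are of log2(normalized count + 1). Alternatives were RLE size factors, no normalization factor, DESeq2 1.42.0, limma-voom (limma 3.58.1), no filter, at least 10 counts in every library, a replicate block, a separate term for replicate 2, replicate 2 left out of both groups, replicates 1 and 4 summed, and each library left out. The deviations from the group means correlated between same-numbered libraries by 0.25, 0.361 and 0.305 for replicates 1, 2 and 4. The correlation between libraries of unlike number was not computed, and replicate 2 stood apart in both groups. These values therefore cannot show that replicates 1 and 4 are paired by number. The block treated the numbers, which come from the library names, as pairing the libraries.

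The members, the gene lists and the tests were chosen with earlier results of these data known. The named members were those past the adjusted threshold, those with an unadjusted p under 0.05, no overlap of the groups and a log2 fold change of 0.5 or more in size, the 10 highest levels per length in shCtrl, a list of channels known from GCs, and the gene with the most counts in each subfamily. Kcna4, Kcnab1, Kcne3, Kcnh2, Kcnh3, Kcnj10, Kcnj11, Kcnk7, Kcnk10, Kcnk16, Kcnq5, Kcns1 and, of other lists, genes without an unadjusted p under 0.05 were named outside the rule, after their values were seen. Some members and sequences are not reported here by name, although they are in the counts. Columns of fold changes and p-values from the authors' own comparisons were not used.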

Additional observations from a re-analysis of the deposited data

How the results depend on the processing

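No potassium channel gene passed an adjusted p of 0.05 in the main model, nor with RLE size factors, without a normalization factor or with limma-voom. None passed it with at least 10 counts in every library or with replicates 1 and 4 summed. The replicate block also changed no call at the adjusted threshold. No filter on low counts gave 5 of 90, and the share of all genes is not given for that setting. DESeq2 called 13 of 66, beside 7.67% of all genes tested, and a separate term for replicate 2 gave 25 of 66, beside 22.1%. Leaving out replicate 2 of both groups gave 52 of 64, beside 52.7%. The last rests on 2 libraries a group that were close to each other. An unadjusted p under 0.05 was held by 24 of 66 genes, beside 20.1% of all genes tested. There were 35 with the replicate block (31.6% of all genes), 37 with the term for replicate 2 (39.5%) and 53 of 64 without replicate 2 of both groups (57.6%). With replicates 1 and 4 summed there were 13 of 71, and the share of all genes is not given for that setting. The groups were free of overlap for 57 of 64 genes without replicate 2 of both groups, beside 76% of all genes, and the median log2 fold change was then 0.18. With 1 library left out, the adjusted count ran from 0 to 24, the unadjusted count from 18 to 41 and the genes without overlap from 24 to 50. Each of these was highest without shCtrl replicate 2, beside 18.3%, 34% and 53.9% of all genes. The median ran from 0.04 to 0.10. Among partners, HCN channels, pumps and cotransporters, DESeq2 called 3 (7.67% of all genes), the term for replicate 2 13 (22.1%) and no replicate 2 26 (52.7%). No filter gave 2, and 1 library left out gave 0 to 11. The summed level in shCtrl was 13177.2 with RLE, 13005.3 without a factor and 15269.6 over the longest transcript. Ythdf2 passed the adjusted threshold with DESeq2 (-0.58), the term for replicate 2 (-0.56) and no replicate 2 (-0.32).

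Of 53 genes chosen by the rule or named outside it, 45 kept their sign under each alternative that tested them. It turned for Kcnj12 without replicate 2 of both groups (0.07), for Kcnk7 with limma-voom (-0.21), for Kcnk3 without a filter (-0.0008) and, with replicates 1 and 4 summed, for Kcnj9 (0.05), Kcnk3 (-0.09), Kcnk7 (-0.0024) and Kcnq5 (-0.07). With 1 library left out, values ran from -0.06 to 0.68 for Kcnip1, -0.18 to 0.21 for Kcnj12, -0.34 to 0.11 for Kcnj9, -0.23 to 0.04 for Kcnk1, -0.20 to 0.48 for Kcnk3, -0.28 to 0.58 for Kcnk7, -0.06 to 0.18 for Kcnq5 and -0.29 to 0.11 for Kcnt1. The cause was not tested. Genes of few counts, such as Kcna7, Kcnc2, Kcnj2, Kcnj16 and Kcnq1, are limited by depth.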

Other observations

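Markers of further cell types that a cerebellar culture can hold were summed in normalized counts, beside the sums given in the report. Those of granule cell progenitors gave 4292 to 4759 in shYthdf2 and 4294 to 4485 in shCtrl, with 1 of 9 tested higher at an unadjusted p under 0.05. Of all genes tested, 9.5% were higher and 10.6% lower at that threshold in edgeR. The markers of Purkinje cells gave 4505 to 4838 and 3207 to 3719, with 3 of 9 higher, and did not overlap. Those of unipolar brush cells gave 13081 to 13651 and 11867 to 13645, with 1 of 6 higher and 1 lower. Those of microglia gave 605 to 1680 and 367 to 1204, and those of vascular cells and fibroblasts, which include Kcnj8, gave 4210 to 11006 and 3099 to 8846, each with none past an unadjusted p of 0.05 in edgeR. Their part in the channel results was not tested.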
